A study of Canis lupus familiaris with 6 samples.

Results

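cfa-miR-141, cfa-miR-200c and cfa-miR-429 (here miR-141, miR-200c and miR-429) are 3 members of the miR-200 family, taken by their names from a canine Agilent miRNA array that holds 289 miRNAs. Each has 2 probes with 20 spots apiece on every array, 40 spots in all. A total signal sums only the probes detected on that array, so fewer spots can stand behind it. CMT-U27, CMT-U309 and P114, cell lines from dog mammary tumours, were stained for stem cell antigen 1 (Sca1), which marks stem and progenitor cells in the mouse, and sorted into Sca1+ and Sca1- cells. The labels call the Sca1+ cells cancer stem cells and the Sca1- cells the control. With 1 sample of each fraction from each line, 3 Sca1+ and 3 Sca1- samples filled 6 arrays. All lines were kept in the same serum-containing medium per the labels, which describe the P114 samples as cells grown with macrophages and the others as mono-culture. Whether the samples came from separate cultures is not stated. No fraction of a line was repeated, so in the paired tests over all 6 arrays each p-value rests on how fraction differences vary between lines. The limma fits pool this spread over the miRNAs tested, in part or in full, so it is not a miRNA's own spread alone. What part of that spread is technical was not measured.

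The miR-200 family consists of small RNAs that keep epithelial cells epithelial. Its members bind the messenger RNAs of the transcription factors ZEB1 and ZEB2, which repress E-cadherin, and the ZEB factors in turn repress the miR-200 genes. In mammary tissue, loss of the family is known to go with an epithelial-to-mesenchymal change, and low miR-200c has been linked to mammary stem cells. In human and mouse the family is made from 2 gene clusters, one with miR-200c and miR-141 and the other with miR-200b, miR-200a and miR-429.

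The probes show what was measured, since probes of this Agilent design pair with the 3' end of the miRNA they are named for. The longest probe of each of the 3 miRNAs is given 5' to 3', with the letters common to all of them in capitals.
miR-141: ccatctTTACCagacag
miR-200c: tccatcaTTACCcgg
miR-429: acggcaTTACCagacagta
The stretch TTACC occurs in 6 of the 656 probes of the array (0.915%, probe strand only), and these are the 6 probes of miR-141, miR-200c and miR-429. The probes of miR-141 and miR-429 are the closest pair, with an unbroken run of 11 letters in common, shown here in capitals as the stretch in which they cannot be told apart.
miR-141: ccatctTTACCAGACAG
miR-429: acggcaTTACCAGACAGta
Whether the signal of one includes RNA of the other was not tested. The other family members on the array, miR-200a and miR-200b, have probes without the shared letters, and no stretch longer than 4 letters links them to any of the 3 above.
miR-200a: tccagcactgtccggt
miR-200b: tccaatgctgcccag

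In the dog the 2 clusters lie on chromosomes 27 and 5. On the build canFam2, which the file headers name, the longest probes of miR-141 and miR-200c map to the minus strand at chr27:41110107-41110122 and chr27:41110523-41110536, and 400 bases separate their probe spans. That of miR-429 maps to the plus strand at chr5:59371758-59371775, 1465 bases from the probe span of miR-200a and 2135 from that of miR-200b. The files list 1 base fewer for each of these positions than the probe has letters. All 5 family members matched an entry of the RefSeq gene table for UU_Cfam_GSD_1.0 by name. There MIR141 and MIR200C lie between the coding genes PTPN6 and PHB2, outside both, and MIR429, MIR200A and MIR200B lie within the span of TTLL10. Exons were not annotated in the tables used here.

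Which array belongs to which sample was not settled, and every comparison of the fractions rests on it. Each of the 6 columns of the deposited value table equalled exactly 1 scanner file, but 4 of them equalled the file attached to another sample. Arrays are therefore named B1, B2 and B3 (bright, with 111, 91 and 89 detected miRNAs) and D1, D2 and D3 (dim, with 39, 22 and 9). By scanner file, the Sca1+ samples of CMT-U27, CMT-U309 and P114 were D1, B1 and D3, and the Sca1- samples D2, B2 and B3. By value table, the Sca1+ samples of these lines were D1, D2 and B1, and the Sca1- samples B2, D3 and B3. B1 was Sca1+ and B2 and B3 were Sca1- in both, but the line of B1 was CMT-U309 by scanner file and P114 by value table. Summed signals were 69282, 70794 and 70162 intensity units on B1, B2 and B3, and 3228, 1277 and 319.5 on D1, D2 and D3. The leukocyte and macrophage list, read because of the macrophage label, had 3 of 6 miRNAs detected on B1, 2 on B2, 3 on B3 and 1 on each of the dim arrays. The myeloid miR-223 was detected on all 6 arrays, between 59.6 and 80.9, while summed signals ran from 319.5 to 70794. Its level thus did not follow the brightness of the arrays, and whether it reads RNA of the samples was not tested. miR-146a was detected on B1 alone, at 690. miR-155 was detected on B1, B2 and B3, miR-146b on B3 alone (32.7), and miR-142 and miR-150 on no array. The part of this list in the results was not tested.

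miR-141, a repressor of the ZEB factors that also targets the TGF-beta pathway, was present at a high level on 1 array. Its total gene signal, the sum over its detected probes, was 2839 on B1, 28.9 on B2 and 23.9 intensity units on D2, and it was not detected on D1, D3 or B3. The scanner software's own error was 217 on B1, 6.40 on B2 and 4.25 on D2. B1 was thus 98.2-fold above B2 and 119-fold above D2 in signal that was not scaled between arrays. Of the 289 miRNAs, miR-141 was the only one detected on B1, B2 and D2 and on no other array (0.346%).

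The spots of miR-141 repeated closely within an array. Its longer probe had a median processed signal of 1485 on B1, with all 20 spots between 1342 and 1620. The median was 22.3 on B2 (14.7 to 39.5) and 18.0 on D2 (14.1 to 25.0), and it was -0.91 on D1, -0.25 on D3 and 2.58 on B3. B1 stood apart from every other array without overlap, while the spots of B2 and D2 overlapped each other. The shorter probe of miR-141 was the weaker one, with medians of 610 on B1, 7.83 on D2 and 5.66 on B2. For the longer probe, 20 of 20 spots were well above background on D2 and 13 of 20 on B2, against 0 of 20 for the shorter probe on both. Of the shorter probe's spots, 19 of 20 on D2 and 12 of 20 on B2 were still positive and significant against background. It reached 2.80 times its error on D2 and 1.22 times on B2. On B1 all 40 spots of miR-141 were well above background, and none of its spots was saturated on any array.

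**Figure D1:**
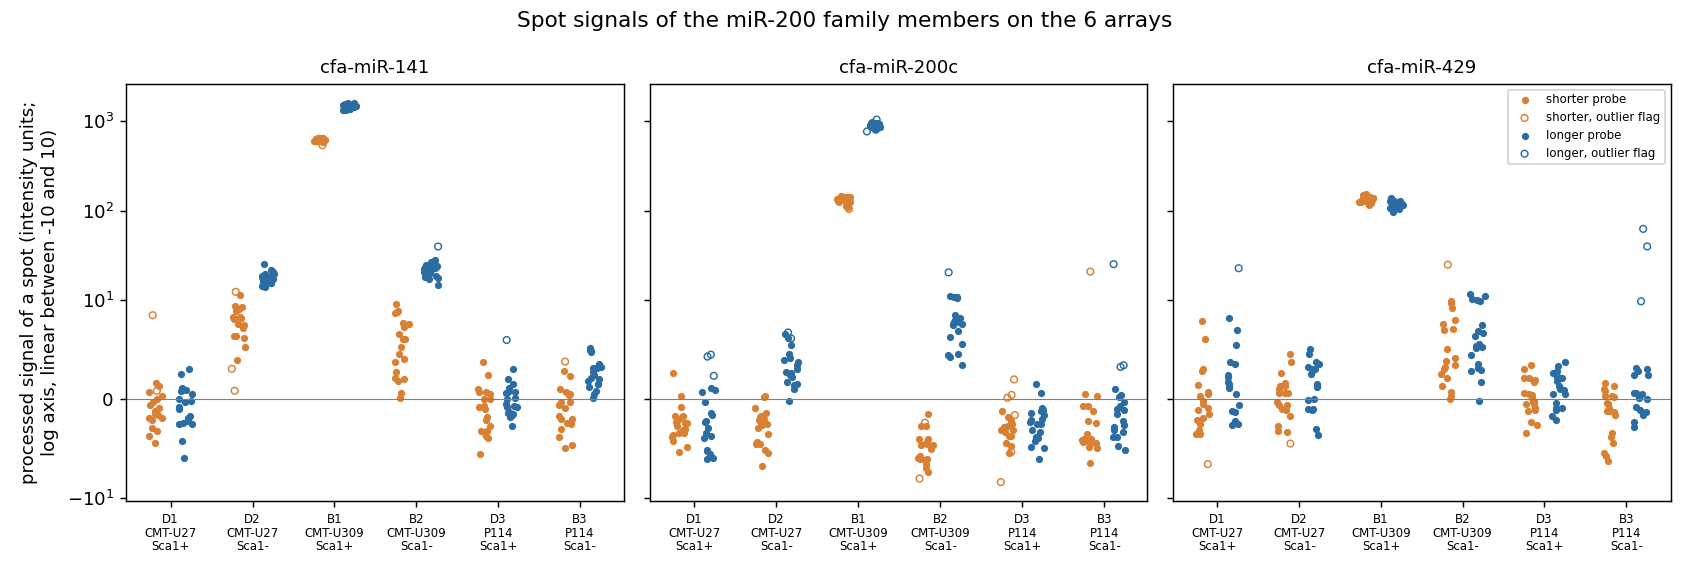
Processed signal of each spot (intensity units, log axis that is linear between -10 and 10) for the shorter and longer probe of miR-141, miR-200c and miR-429 on the 6 arrays, labelled with line and fraction as in the scanner files; open circles carry an outlier flag. B1 stands above all other arrays for all 6 probes. Among these miRNAs only miR-141 was detected on further arrays, B2 and D2. The longer probe of miR-200c also had positive medians there (7.71 and 3.23), without detection.

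miR-200c, the family member best known for repressing ZEB1, was detected on B1 alone, with a total gene signal of 1427 (software error 126). The longer probe had a median processed signal of 924 on B1, with spots between 770 and 1046, and the shorter one a median of 135 there. Elsewhere the median of the longer probe was 7.71 on B2, 3.23 on D2, -1.33 on B3, -2.27 on D1 and -2.41 on D3. B1 did not overlap with any other array. On B2, 19 of 20 spots of the longer probe were positive and significant against background, yet the probe reached only 1.73 times its error, where detection needs 3 times. Such a share of spots (at least 90%) was found for 7.19% of the probes of undetected miRNAs on B2. The shorter probe had 0 of 20 such spots on B2. That cannot decide the matter, since the shorter probe was also far weaker on B1 (a median of 135 against 924).

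miR-429, which shares its seed with miR-200b and miR-200c, was also detected on B1 alone, at 338 (software error 24.6). Here both probes gave similar spot values on B1, with medians of 132 for the shorter probe (116 to 152) and 117 for the longer one (95.5 to 137). The median of the longer probe was 5.44 on B2, 1.45 on D1, 1.43 on D2, 1.18 on D3 and 0.56 on B3. On B2, 14 of 20 of its spots were positive and significant, at 1.40 times the error. Among the probes of undetected miRNAs on B2, 11.5% had such a share or more (at least 70%). B2 had the second highest median for the longer probe of all 3 miRNAs, but among miRNAs undetected on B2, miR-200c and miR-429 ranked 25th and 38th of 198 by signal over error, so neither is set apart there.

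The remaining family members, as their probes read them, were detected on no array. Which arm of the hairpin the miR-200a and miR-200b probes target was not looked up here, so non-detection may not speak for the arm with the family seed. All probes of miR-200a had medians below 2 intensity units on B1, while the longest probe of miR-200b had a median of 7.87 there, with 10 of 10 spots positive and significant. This probe reached 2.80 times its error, just under the detection rule, and ranked 3rd of the 178 miRNAs undetected on B1. Its median on the other arrays lay between -3.14 and -1.19. Of the probes of undetected miRNAs on B1, 2.87% had at least 90% of their spots positive and significant.

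The dim arrays limit what absence means. To compare arrays of unlike brightness, each signal was taken as a share of the array's summed signal. For an undetected miRNA the share that would just have been detected was computed from the smallest error among its probes. The sum takes in detected miRNAs only, 111 on B1 but 22 on D2 and 9 on D3. On D2 miR-494 alone held 513 of 1277 intensity units, against 2723 of 69282 on B1. Shares on dim and bright arrays thus do not have an equal base. miR-141 made up 4.10% of the signal on B1, 1.87% on D2 and 0.0409% on B2. On this scale D2 was 2.19-fold below B1, while B2 was 100.3-fold below, so the order of B2 and D2 turned with the scale. Both folds again set both probes on B1 against the longer probe alone on D2 and B2. The limit for miR-141 was 0.306% on D1, 2.92% on D3 and 0.0183% on B3, all below its share on B1. miR-200c made up 2.06% on B1. Its limit was 0.0241% on B2, 0.0183% on B3, 0.306% on D1 and 0.820% on D2, but 2.92% on D3, so a share equal to that on B1 could not have been seen on D3. miR-429 made up 0.489% on B1. That share was above its limit on B2 (0.0243%), B3 (0.0183%) and D1 (0.308%), but under it on D2 (0.822%) and D3 (2.92%). In these bulk samples fewer cells that express a miRNA and less of it per cell cannot be told apart.

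**Figure D2:**
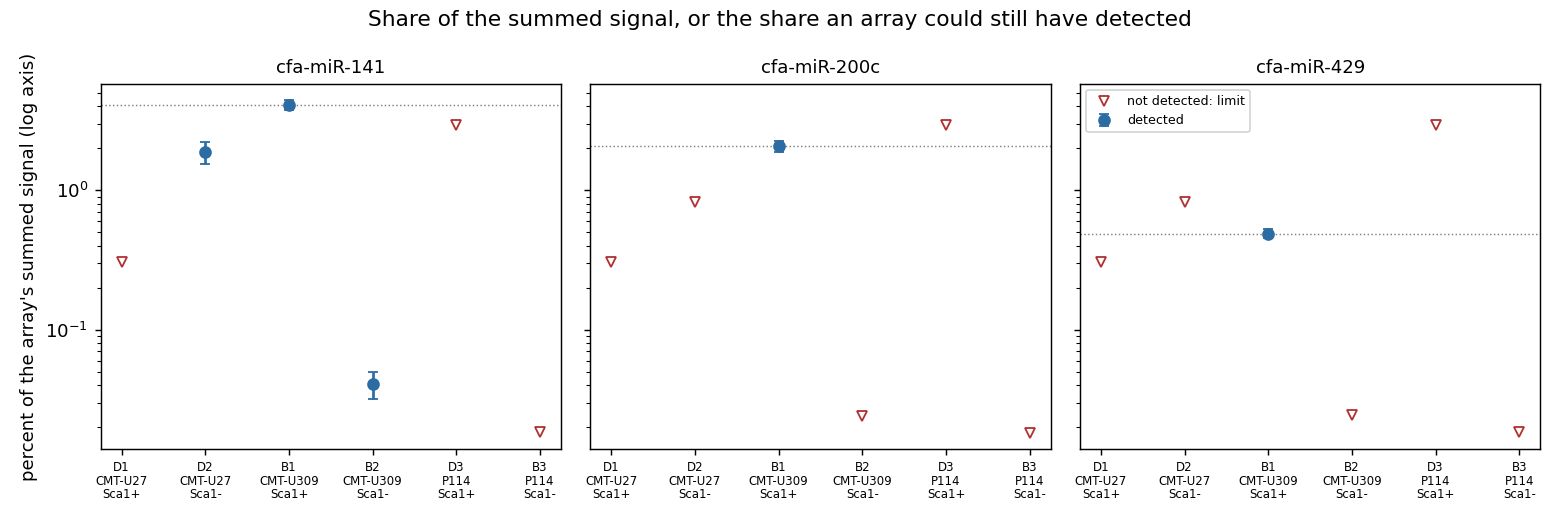
Percent of the array's summed signal (log axis) for each miRNA on the 6 arrays, labelled as in the scanner files: filled circles are detected values with the software's error, open triangles the limit of arrays where it was not detected, and the dotted line is the level of B1. For miR-429 the limits of D2 and D3 (0.822% and 2.92%) lie above the level of B1 (0.489%).

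Sca1+ and Sca1- cells were compared within lines, the question the sort was made for. miR-141 was the one member in the fit, since miRNAs had to be detected on at least 3 arrays. By scanner file its total gene signal in Sca1+ cells was 2839 in CMT-U309 and undetected in CMT-U27 and P114, and in Sca1- cells it was 28.9 in CMT-U309, 23.9 in CMT-U27 and undetected in P114. The groups overlapped. CMT-U309 was higher in Sca1+ cells (4.10% of the summed signal against 0.0409%). CMT-U27 was lower in Sca1+ cells (under 0.306% against 1.87%), and P114 could not be ordered. The mean log2 difference was -3.05 (SE 3.63, adjusted p = 0.995 with limma, n = 3 pairs), against a median of -0.81 over the 80 miRNAs tested, of which 0% passed and 0 had an unadjusted p under 0.05. That mean takes in arrays where miR-141 was undetected, such as D1 at -14.69 on the scaled log2 scale against -0.28 on B1, and it was 2.77 (SE 1.54, adjusted p = 0.994) with a floor at the lowest signal well above background. Neither size is exact: with that floor the P114 pair, undetected on both arrays, still counted as 5.38. Without either CMT-U27 array it was 2.08 (SE 2.59, adjusted p = 0.661), and without either CMT-U309 array -7.28 (adjusted p = 0.999).

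By value table the same arrays gave another set of pairs. miR-141 was then at 2839 in Sca1+ cells of P114, at 23.9 in those of CMT-U309 and undetected in those of CMT-U27, against 28.9 in Sca1- cells of CMT-U27 and no detection in those of CMT-U309 and P114. Only the P114 pair could be ordered, as higher in Sca1+ cells (4.10% against under 0.0183%). The D1 limit (0.306%) lay above the value of B2, and the D3 limit (2.92%) above that of D2. The mean log2 difference was 3.05 (SE 4.07, adjusted p = 0.826), again with 0% of 80 miRNAs past the threshold and 3 at an unadjusted p under 0.05.

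miR-200c and miR-429 were under the filter. The 1 pair that could be ordered for each was the pair with B1, which was CMT-U309 by scanner file and P114 by value table, and it was higher in Sca1+ cells in both. For miR-200c the share was 2.06% in Sca1+ cells of that pair against under 0.0241% (B2) or under 0.0183% (B3) in Sca1- cells. For miR-429 it was 0.489% against under 0.0243% (B2) or under 0.0183% (B3). Over all 3 pairs no bound above 1 could be given by either reading, with undetected Sca1+ arrays taken without a floor at the lowest signal well above background. Bounds above 1 were had with normexp background or a raised floor. With the raised floor the P114 pair of the scanner files counted as 5.38 on the log2 scale, with neither miRNA detected. In a fit without the filter on all 289 miRNAs, where 0% passed (3 at an unadjusted p under 0.05), the log2 difference was 0.40 for miR-200c (SE 2.96, adjusted p = 0.997 with limma) and 3.21 for miR-429 (SE 2.96, adjusted p = 0.997). In the fit by scanner file the SE was the same for every family member, so it is no measure of a miRNA's own spread. The same fit by value table gave 6.57 (SE 4.28) and 2.54 (SE 2.63), both at an adjusted p of 0.988. The median over all 289 miRNAs was 0.68 by scanner file and -0.13 by value table.

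The lines were compared with the fraction as a term. By scanner file miR-141 was undetected and 23.9 in CMT-U27 (Sca1+ and Sca1-), 2839 and 28.9 in CMT-U309, and undetected in both P114 samples. Its test among the 3 lines gave an adjusted p of 0.888 with limma, and 0% of 80 miRNAs passed (4 at an unadjusted p under 0.05). Of the 80, 17.5% passed by value table, and miR-141 was not among them (adjusted p = 0.617). Without the filter 0% of 289 miRNAs passed by value table (63 at an unadjusted p under 0.05) and 0% by scanner file (13). In that unfiltered fit miR-200c had an adjusted p of 0.410 by scanner file and 0.908 by value table, and miR-429 had 0.999 and 0.859. None of the 3 miRNAs passed a test among lines, and the line that carries the bright signal is CMT-U309 or P114 by the assignment of B1.

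The 3 bright arrays allow a comparison in which the fraction of each array is the same by both readings: B1 as Sca1+ against B2 and B3 as Sca1-. With 1 Sca1+ array the fraction cannot be told apart from anything else particular to that sample. With each Sca1- array taken at no less than its lowest signal well above background, B1 was higher for miR-200c by at least 39.8-fold and for miR-429 by at least 5.05-fold. Over 4 scalings the bound ran from 29.0 to 49.8 for miR-200c and from 3.68 to 6.31 for miR-429. miR-141 was measured on B2 and undetected on B3, and with the same floor B1 was higher by at least 64.0-fold (46.6 to 79.9 over the 4 scalings). Of the 289 miRNAs, 9.34% were detected on B1 at 5 times the signal of both other arrays or more, or undetected on those, and all 3 members were among these. In the fit, miR-141 had a log2 difference of 7.50 (SE 1.47) and did not pass (adjusted p = 0.0905 with limma over 90 miRNAs, n = 1 and 2), where 4.44% of miRNAs passed and none of them was higher on B1. The size is not exact, because B3 enters below background. The p rests on the spread between B2 and B3, which limma pools over the miRNAs tested. A call is therefore not drawn from the spread of miR-141 alone. The call depended on the processing, as did the share of all 90 miRNAs that passed. miR-141 passed with normexp background (log2 difference 3.73), where 60% of miRNAs passed, 43 of them higher on B1 and 11 lower. It passed with a floor at the lowest signal well above background (5.95), where 11.1% passed, 3 higher and 7 lower. It passed with scaling over all probes (7.04), where 12.2% passed, 1 higher and 10 lower. It did not pass with quantile scaling (7.14, adjusted p = 0.187), where 0% passed and 29 had an unadjusted p under 0.05, or without the filter (7.50, adjusted p = 0.474). In the unfiltered fit neither miR-200c (adjusted p = 0.657) nor miR-429 (adjusted p = 0.581) passed, and 0% of 289 miRNAs did (32 at an unadjusted p under 0.05).

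**Figure D3:**
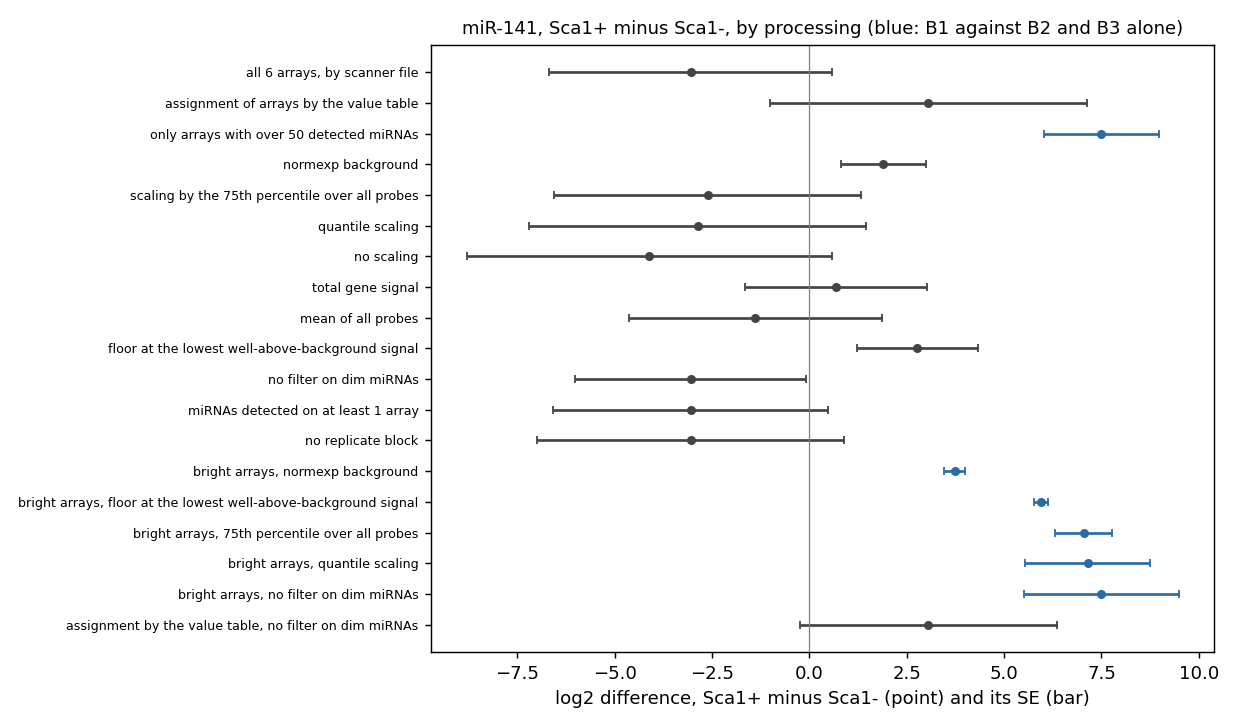
Log2 difference of miR-141, Sca1+ minus Sca1- (points), with its SE (bars), in each fit that kept all samples or left out the 3 dim arrays (blue). With all arrays the sign runs both ways, between -4.11 and 3.05, while B1 against B2 and B3 gives 3.73 to 7.50.

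The members were then set beside other miRNAs on the bright arrays. Detection on B1 alone was not rare: 24 of 289 miRNAs showed it (8.3%), among them miR-200c and miR-429. Of the 123 miRNAs detected on a bright array, 68.3% had a higher total gene signal on B1 than on both B2 and B3 and 19.5% a lower one. A list of other epithelial miRNAs had 5 of 9 detected, and all 5 were higher on B1. miR-203, of differentiating epidermis, was at 422 on B1 alone, and miR-205, of basal epithelium, at 101 on B1 alone. miR-96, of the miR-183 cluster, was at 623 on B1 against 222 and 276 on B2 and B3. Its neighbours miR-182 (233 against 73.2 and 71.7) and miR-183 (160 against 33.6 and 57.5) were higher on B1 in the same way. miR-192, miR-194, miR-215 and miR-375, known from gut, liver and endocrine epithelium, were not detected on these arrays.

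The mesenchymal and stromal list ran the other way. Of its 11 miRNAs, 8 were detected on a bright array, 6 lower on B1 than on both others and 2 higher, with a median log2 ratio of -0.82 over the 7 detected on all of them, beside 0.51 over all 78 such miRNAs. miR-199 was undetected on B1, against 245 on B2 and 193 on B3. miR-140 was at 19.9 on B1 against 390 and 430, miR-221 at 175 against 746 and 667, and miR-222 at 118 against 346 and 251. The 2 that were higher on B1 were miR-10b (1.39-fold over B2 and 2.30-fold over B3) and miR-155 (189 against 139 and 78.0). miR-143, miR-145 and miR-214 were detected on none of the bright arrays. These are single arrays, so the direction of either list was not tested.

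**Figure D4:**
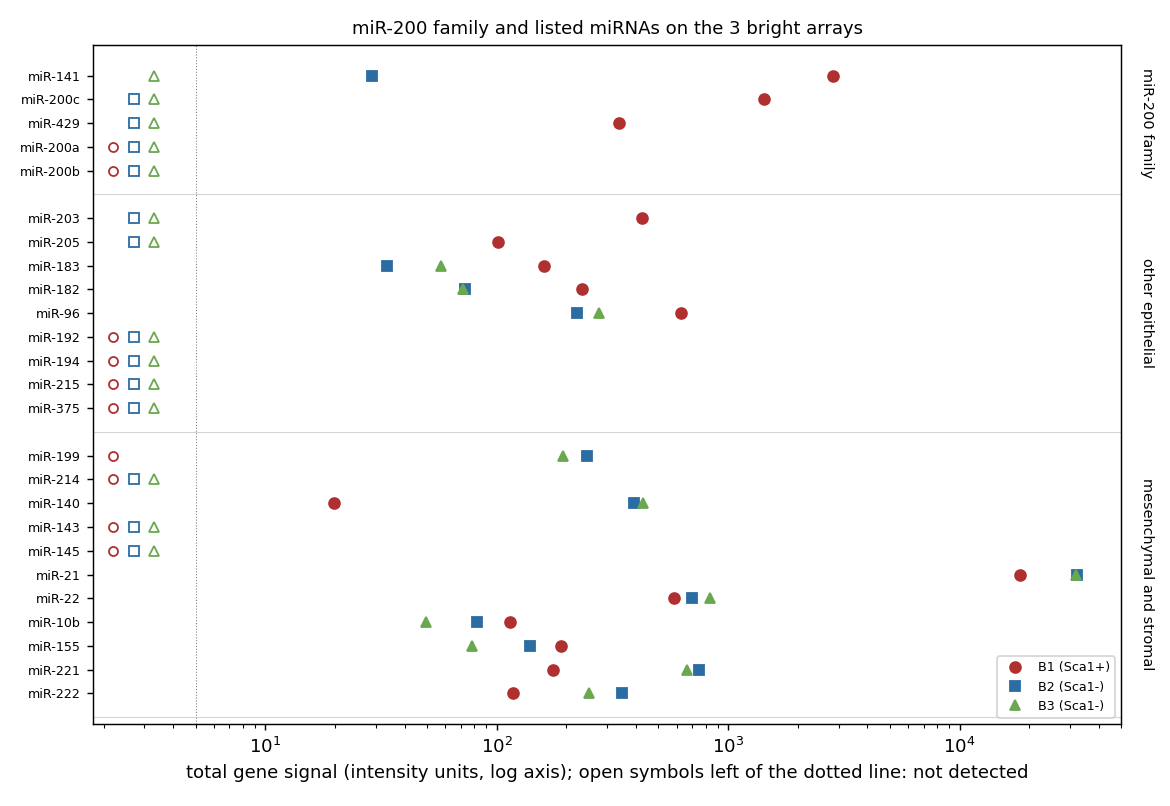
Total gene signal (intensity units, log axis) of the miR-200 family, other epithelial miRNAs and mesenchymal and stromal miRNAs on B1 (Sca1+), B2 and B3 (both Sca1-); open symbols at the left mark miRNAs not detected. All 8 detected miRNAs of the first 2 lists are highest on B1, against 2 of 8 in the third.

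Other miRNAs known to act on the ZEB factors or on epithelial-to-mesenchymal change were read in the same way. All 13 on the list were detected on a bright array, 11 higher on B1 than on both others and 2 lower, a share of 84.6% beside 68.3% of all miRNAs. The list was not split by whether a member promotes or opposes the change, so this share has no direction. It also overlaps the lists above: miR-10b, miR-155 and miR-21 are on the mesenchymal and stromal list, and miR-205 is on the epithelial one. The 2 lower ones were miR-34a, a target of p53 that represses SNAI1, at 37.5 against 444 and 363, and miR-21, which is raised in many cancers, at 18172 against 32139 and 31945. All 5 members of the miR-30 family, which also repress SNAI1, were higher on B1. miR-30a (33.3) and miR-30e (13.4) were undetected on both other bright arrays, miR-30c was at 70.3 against 37.3 and 33.7, miR-30b at 673 against 456 and 471, and miR-30d at 347 against 247 and 284. miR-103 (450 against 275 and 242) and miR-107 (448 against 203 and 183), which repress Dicer, were higher on B1.

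The likeness of patterns could be measured only coarsely. Pearson's r was taken over the 6 arrays on log2 total gene signal, with signals below 12.6 set to that value. miR-200c and miR-429 had an r of 1.00 with each other and with 22 further miRNAs, since any 2 miRNAs above the floor on B1 alone give that value. miR-141 had its highest r, 0.985, with the same 24 miRNAs. The 6 arrays share 1 slide and differ widely in brightness, so these values say that B1 is high and no more. Of miR-141, miR-200c and miR-429, only miR-141 was detected on D2, and it was the brightest of them on B1. For miR-429 non-detection on D2 says little, since its share on B1 (0.489%) was under its limit on D2 (0.822%). The share of miR-200c on B1 (2.06%) was above its limit on D2 (0.820%). 22 miRNAs were detected on D2, and 3 of them were not detected on B3: miR-141, miR-451 (39.4 on D2 and 18.1 on B2) and miR-489 (133 on D2, 122 on D1 and 39.2 on B1). The last pair was named after the values were seen.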

How the data were processed

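The members and the miRNA lists were chosen with earlier results of these data known. Labelled total RNA of 6 samples was hybridized to 6 arrays of 1 slide with 1 scan date. The deposited scanner files hold spot intensity that the authors' Agilent software (Feature Extraction) wrote. The file headers give its version as 10.10.1.1, the submitters' processing notes as 10.7.3.1. Per the file headers, values are background-subtracted, spatially detrended and not scaled between arrays. The files also hold detection flags of 0 or 1 set by the authors' software. Its rule (a probe signal over 3 times its error) gave the flag in 1734 of 1734 cases. The deposited values per sample are the intensity summed per miRNA, 0.1 where undetected, and were matched to the scanner files over 311 features at a relative tolerance of 0.0001. No scanner spot carries a count, so the number of arrays limits precision.

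For the fits, processed signals at or below 0 were set to the array's lowest positive value, log2 was taken, and the 75th percentile of 10 probes (6 miRNAs), those well above background on every array, was subtracted. Outlier-flagged spots were left out, spots of a probe were averaged, and a miRNA took its probe with the highest mean. lmFit and eBayes of limma 3.58.1 (R 4.3.3; package data.table, version 1.17.8) had terms for line and fraction on 80 miRNAs. Samples are paired by line, the source of both fractions. Benjamini-Hochberg adjustment was used, and adjusted p-values under 0.05 passed. The fit was tested on simulated data. The limit of detection was 3 times the smallest probe error, and B1 was compared with B2 and B3 after rescaling over these arrays, among miRNAs detected on at least 2 of them. Bounds take each Sca1- array at no less than its lowest mean signal well above background. Sca1+ arrays entered as in the fit, also where undetected, with no such floor unless the setting raised it. Named miRNAs are the family, the listed markers and those most alike in pattern.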

Additional observations from a re-analysis of the deposited data

Results flagged for a closer look

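The difference of miR-141 between Sca1+ and Sca1- cells went opposite ways in 2 lines when the arrays were read as in the scanner files. On the log2 scale, with undetected values raised to the lowest signal well above background, it was -2.38 in CMT-U27 (D1 and D2) and 5.32 in CMT-U309 (B1 and B2). The first of these is not a measured size, since D1 was undetected: miR-200c and miR-429, undetected on both arrays of CMT-U27, gave -1.96 there by floor and scaling alone. Undetected on both arrays of P114, miR-141 gave 5.38 in the same way. As shares of the summed signal, miR-141 was under 0.306% in Sca1+ against 1.87% in Sca1- cells of CMT-U27, and 4.10% against 0.0409% in CMT-U309. Each line has 1 sample per fraction, so the difference between lines was not tested. By the value table, P114 was the 1 pair with an order, and Sca1+ was higher there.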

How the results depend on the processing

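With all 6 arrays, 0 miRNAs passed the Sca1 contrast in each alternative that kept them, leaving out any one array included (0 to 0). Leaving out the dim arrays gave 4, and with them out 54 passed with normexp background (43 higher and 11 lower on B1), 10 with a floor at the lowest signal well above background (3 and 7), 11 with scaling over all probes (1 and 10), 0 with quantile scaling and 0 without the filter, choices added after the data were examined. Among lines 14 passed by the value table (0 without the filter) and 1 with the total gene signal, against 0 in the main setting and 0 to 0 without any one array. The log2 difference of miR-141 (-3.05) turned positive by the value table (3.05, also without the filter), with normexp background (1.90), the total gene signal (0.68) and the raised floor (2.77). Without any one array it ran from -7.28 to 2.08. Without the dim arrays it was 7.50, also without the filter, 3.73 with normexp, 5.95 with the raised floor, 7.04 with scaling over all probes and 7.14 with quantile scaling. Without the replicate block (no term for line) it stayed at -3.05 (adjusted p = 0.994 with limma), and no call changed. Bounds for Sca1+ over Sca1- over all pairs were under 1 in the main setting and stayed so by the value table and without any one array (0.000641 to 0.138 for miR-200c, 0.0507 to 0.514 for miR-429), as with the other scalings. They were above 1 without the dim arrays (39.8 for miR-200c and 5.05 for miR-429), with the raised floor (6.57 and 3.45) and with normexp (2.89 and 2.13). The raised floor and normexp act on signals at or below background, which hold most values of the members on D1, D2 and D3. In the main setting undetected Sca1+ arrays had no such floor. For miR-200c, D1 entered at -16.46 on the scaled log2 scale, against -0.96 on B1. Lowest signals well above background lay between 12.4 (D3) and 21.3 (B2) intensity units.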
